A study of Homo sapiens with 10 samples.

Results

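HOX genes encode homeodomain transcription factors that give cells their position along the head-to-tail axis of the body. In human they lie in the HOXA, HOXB, HOXC and HOXD clusters, each on its own chromosome, and genes with the same number in different clusters are paralogues. All genes of a cluster are transcribed in the same direction, with the low numbers at the downstream end. In the embryo the low numbers are expressed furthest towards the head and the high numbers furthest towards the tail. Neuroblastoma arises from the sympathetic lineage of the neural crest, a population of migratory embryonic cells in which HOX genes mark the level of origin.

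The 39 HOX cluster genes, taken as the protein-coding genes of GENCODE release 44 whose symbols are HOXA, HOXB, HOXC or HOXD with a number, were among 20033 protein-coding genes examined. A peak was given to a gene when its summit lay in the gene body or up to 600 bp past its 3′ end. Poly(A) 3′-seq, in which reads start at or next to the cleavage site of polyadenylated RNA, was performed in the human neuroblastoma line IMR-32, in cells that carried lentiviral pLKO.1 shRNAs and had been selected with puromycin. There were 4 libraries of cells with shCDK12 (sh22 and sh98), 4 of cells with shCDK13 (sh701 and sh704) and 2 of cells with shGFP as control. CDK12 and CDK13 are kinases that act on elongating RNA polymerase II. The deposited peaks were called once on the merged reads of all 10 libraries, after random downsampling, so every value below describes knockdown and control cells together and no comparison between shCDK12, shCDK13 and shGFP, or between replicates, could be made. The libraries had been prepared in batches of differing quality, which cannot be told apart in the merged reads.

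The list held 178837 peaks, of which 148735 had a summit in a protein-coding gene and 32 in a HOX gene. The height of each peak is given as the pileup, the number of extended reads over the summit, which was recovered from the deposited fold and p-value. Reads with the same position and strand are collapsed by default in peak calling, so the reads given below are distinct positions. Pileups in the list started at 3 reads, with a median of 9. All 12 markers of noradrenergic neuroblastoma examined had a terminal peak, against 68.7% of all protein-coding genes. A terminal peak is one whose summit lay between 200 bp before and 600 bp after the end of an annotated transcript. Of 6 markers of other lineages, the albumin gene ALB and the muscle regulator MYOD1 each had a terminal peak, of 3 and 11 reads, and KRT5, PTPRC, CD3E and HBB had no peak.

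Peaks near annotated transcript ends of HOX genes were found in the HOXC and HOXD clusters and in neither HOXA nor HOXB. A peak was present in 13 of the 39 HOX genes (33.3%), against 77.2% of all protein-coding genes, and all 13 had a terminal peak, against 68.7%. Of the 9 HOXD genes, 8 had a peak, and of the 9 HOXC genes, 5 did. The 11 HOXA genes and the 10 HOXB genes had none. A peak whose −log10 q-value reached 20 was present in 7 HOX genes (17.9%), against 44.2% of all genes, and at least 3 peaks were present in 6 HOX genes (15.4%), against 57.1%. HOX genes are short, with a median length of 4.22 kb against 27.5 kb for all protein-coding genes. Among the 12974 protein-coding genes within the range of HOX lengths, from 1.68 to 56.0 kb, 74.8% had a peak and 67.2% a terminal peak. This range is set by the shortest and the longest HOX gene, so these genes were not matched to the median HOX length. Peaks show RNA that was read at this depth, so a gene without a peak had too few reads to be called, not necessarily none.

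**Figure D1:**
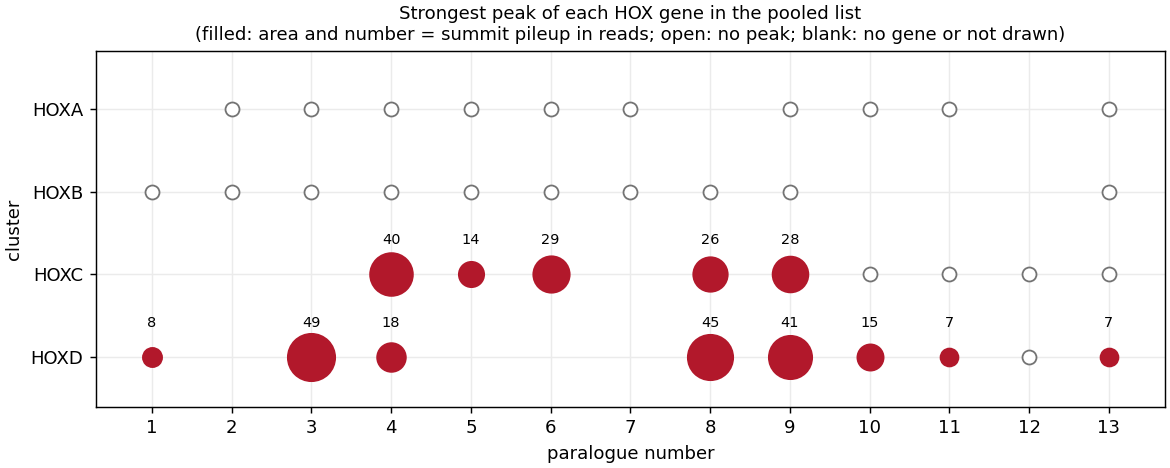
Strongest peak of each HOX gene by cluster (rows) and paralogue number (columns), where the area of a filled circle and the number above it give the summit pileup in reads of the pooled libraries, and an open circle is a gene without a peak (blank places hold no gene or are not drawn). All filled circles are in the HOXC and HOXD rows, from 7 reads for HOXD11 and HOXD13 to 49 for HOXD3.

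The sequence just upstream of the 3′ edge of a terminal peak was searched for a poly(A) signal, the hexamer read by the cleavage machinery. Of the 13 genes, 12 are shown, with 30 bases of GRCh38 each, on the plus strand and with the hexamer in capitals. HOXD8 is left out because the hexamer nearest to the edge of its broad terminal peak lay 53 bp upstream. The windows end at the edge of the peak, except for HOXC4, HOXD13 and HOXD9, where the hexamer started 33, 35 and 46 bp upstream and the window starts with it.
HOXC4 (chr12:54056002-54056031): AATAAAccagtggatgtgaattagttttac
HOXC5 (chr12:54035331-54035360): tcatatcaAATAAAgagagaacaggactaa
HOXC6 (chr12:54030793-54030822): tAATAAAactgatattatttttaaaacttt
HOXC8 (chr12:54012739-54012768): cataatAATAAAaagaagaagaaaaataat
HOXC9 (chr12:54003305-54003334): tgtgttAATATAttgaagtcacttaaccag
HOXD1 (chr2:176190879-176190908): ttttttgtAATAAAaattatagaatctgct
HOXD3 (chr2:176173448-176173477): aaAATAAActttgaaagaaaactgacaatc
HOXD4 (chr2:176153200-176153229): ggcgagtcATTAAActtatgaaaatcaccg
HOXD9 (chr2:176124892-176124921): AATAAAtgctgacctgatcaaatggagccc
HOXD10 (chr2:176119909-176119938): atgtataatgcAATAAActctggaaatgag
HOXD11 (chr2:176109611-176109640): tgtgtgAATAAAtggtttctagtaaaatgg
HOXD13 (chr2:176095916-176095945): AATAAAcagaactcttttgtttcttctgag

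These windows were picked for holding a hexamer, so its presence in them is not a result, and whether it was used was not tested. The edge of a broad peak can lie far from its summit. At HOXD3 the edge was 375 bp past the last annotated end and the summit 25 bp before an annotated end. For HOXC9 the window is that of the weaker terminal peak at the full-length end, since the stronger one had no hexamer within 100 bp upstream of its edge. The hexamer shown is the canonical AATAAA except in HOXD4, with the common variant ATTAAA, and HOXC9, with the rarer variant AATATA. The 3′ edge of the peak lay within 10 bp of an annotated transcript end for 10 of the 17 terminal peaks. At HOXC5, HOXC6 and HOXC8 the edge was 1 bp before the annotated end, and at HOXC9 it was 3 bp before it. The edge coincided with the annotated end of HOXD9, was 1 bp past those of HOXD1 and HOXD10, 3 bp past that of HOXD4, 4 bp past that of HOXC4 and 6 bp past that of HOXD13.

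By the strongest peak of each gene, HOX pileups ran from 7 to 49 reads, and those of all protein-coding genes with a peak from 3 to 114. The highest was at HOXD3 with 49 reads (exact Poisson 95% interval 36.3 to 64.8), followed by HOXD8 with 45 (32.8 to 60.2), HOXD9 with 41 (29.4 to 55.6) and HOXC4 with 40 (28.6 to 54.5). HOXC6 with 29 reads, HOXC9 with 28 and HOXC8 with 26 came next, and HOXD4 with 18 reads (10.7 to 28.4), HOXD10 with 15 and HOXC5 with 14 below them. The lowest were HOXD1 with 8 reads and HOXD11 and HOXD13 with 7 each (2.81 to 14.4). The strongest peaks of HOXD3, HOXD8 and HOXD9 also lay in antisense lncRNA genes, and without strand their reads cannot be divided between the genes. Neighbours in this order had overlapping intervals. The intervals of the top 4 genes lay above those of the 6 lowest, and those of HOXC6, HOXC9 and HOXC8 lay above those of HOXD1, HOXD11 and HOXD13. These intervals cover counting error only and treat each read as an independent count. By default the peak caller drops further reads with the same position and strand, so pileups count distinct positions and saturate. A lower pileup can therefore mean fewer distinct read positions or fewer transcripts, and the intervals cannot decide between these. Fewer cells with a transcript and fewer transcripts per cell cannot be told apart either.

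The median over the 13 HOX genes was 26 reads, against 24 over all genes with a peak, and 7 of the 13 lay above the latter. HOXD3 stood at or above 93.1% of all genes with a peak, and HOXD8 and HOXC4 at or above 90.2% and 84.6%. HOXD11 and HOXD13 stood at or above 6.83%. By rank, the HOX genes with a peak thus spread over most of the distribution of other genes and did not gather at its low end.

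**Figure D2:**
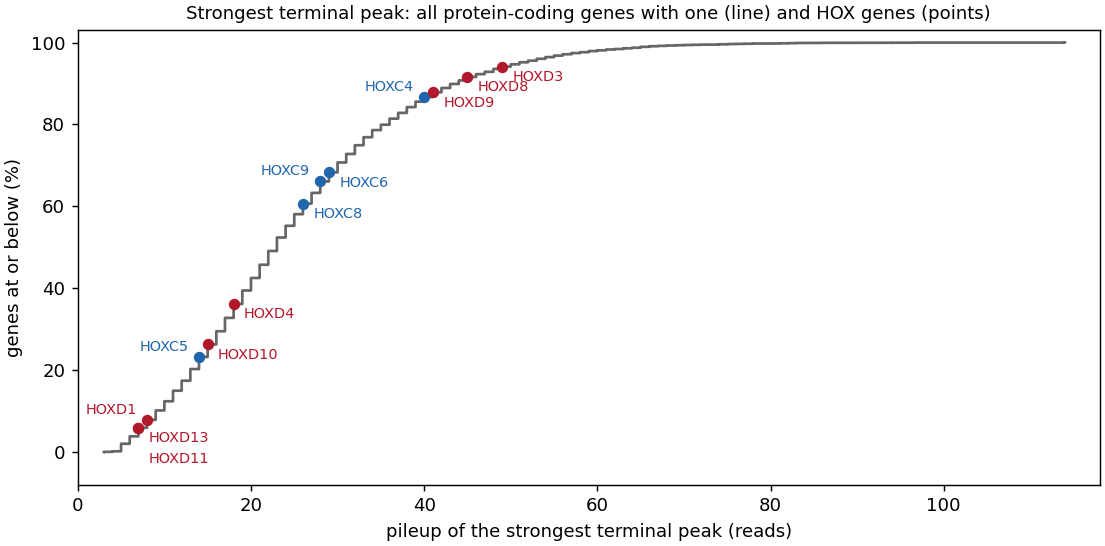
Cumulative share of protein-coding genes with a terminal peak (vertical axis, in %) by the pileup of their strongest terminal peak (horizontal axis, in reads), with HOXC genes in blue and HOXD genes in red. The points run from 7 reads (HOXD11, HOXD13) to 49 reads (HOXD3), on both sides of the median of 23 reads.

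The HOXA cluster lies on the minus strand of chromosome 7, and HOXA2 to HOXA7, HOXA9, HOXA10, HOXA11 and HOXA13 are among its genes. The nearest peaks lay 330 kb from its downstream end and 256 kb beyond HOXA13, so the stretch without a peak was 694 kb long. It contained 13 whole protein-coding genes, namely the 11 HOXA genes, the homeobox gene EVX1 and a readthrough gene without a symbol. Of 178368 stretches between neighbouring peaks, 477 were at least as long. Genes were counted only in the longer stretches, of which 27 held at least as many protein-coding genes. Neighbouring peaks within the same gene give many short stretches, so these counts do not show how much of the genome lacked peaks. None of the 10 long non-coding RNA (lncRNA) genes in or within 10 kb of the cluster had a peak, among them HOTAIRM1, first described in myeloid cells, and HOTTIP, which is transcribed from the HOXA13 end.

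The HOXB cluster, on chromosome 17 from 48528526 to 48728750 on the minus strand, holds HOXB1 to HOXB9 and HOXB13. The stretch without a peak was 585 kb long, from 280 kb beyond HOXB1 to 105 kb beyond HOXB13. It also contained 13 whole protein-coding genes, the 10 HOXB genes with PRAC1, PRAC2 and TTLL6. At least as long were 649 of the stretches between neighbouring peaks. The 8 lncRNA genes of this cluster, HOXB-AS1 to HOXB-AS4 among them, had no peak either.

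Some genes further out from the stretches without peaks were read. Beside HOXB, CALCOCO2 reached 56 reads, CBX1 41 and SNX11 22 in their strongest terminal peaks. Beside HOXA, only HIBADH, which encodes an enzyme of valine breakdown, had a terminal peak, of 13 reads, out of 4 neighbours examined. All 4 neighbours of HOXC had a terminal peak, the highest being HNRNPA1 with 59 reads, CBX5 with 44 and SMUG1 with 30. Of 4 neighbours of HOXD, LNPK (57 reads), ATP5MC3 (53) and MTX2 (37) had a terminal peak, and EVX2, the homeobox gene next to HOXD13, had no peak.

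The HOXC cluster occupies bases 53938831 to 54056030 of chromosome 12, in plus orientation, and held 15 peaks, or 12.8 per 100 kb, with a median pileup of 14 reads (5 to 40). All of them lay in the downstream part of the cluster, from 60.2 kb after its first base onwards. HOXC4, HOXC5, HOXC6, HOXC8 and HOXC9 had a peak, and HOXC10, HOXC11, HOXC12 and HOXC13, which occupy the upstream part, had none. Several gene models overlap here, since long introns of HOXC6 and HOXC4 run across HOXC9 and HOXC8 and across HOXC5, and an unnamed readthrough gene covers much of the same stretch. Of the 32 HOX peaks in both clusters, 14 lay in the models of 2 HOX genes.

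HOXC4, a gene of the neck and upper trunk level that also acts in B cells, had 8 peaks in its model. The strongest, at chr12:54055744-54056034, had 40 reads over a background of 0.950 reads, and its −log10 q-value of 46.1 was the highest of any HOX peak. A second terminal peak of 24 reads lay upstream of it in the last exon, with its summit 174 bp past the end of a shorter HOXC4 transcript. It had no AATAAA or ATTAAA within 100 bp upstream and 8 A in the 10 bases downstream. Weak peaks of 5, 5 and 9 reads lay in HOXC4 introns.

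HOXC5, a gene active in cervical motor neurons, had a single peak of 14 reads at its annotated end, which is shared with the unnamed lncRNA gene ENSG00000273046. HOXC6 and HOXC8 pattern motor neurons at the level of the forelimb. The terminal peak of HOXC6, at chr12:54030541-54030822, had 29 reads and a −log10 q-value of 30.7. The only other peak in the stretch between HOXC8 and that end had 7 reads.

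HOXC8 had a row of 4 peaks along its last exon. From upstream to downstream their pileups were 9, 19, 25 and 26 reads, and their 3′ edges lay 1393, 869, 435 and 1 bp before the annotated end. The first overlapped coding sequence and the following ones lay past it. The last, at chr12:54012525-54012768, had AATAAA 24 bp upstream, whereas the others had only AAGAAA or other minor variants, with 6, 6 and 8 A in the 10 bases downstream. Oligo(dT) can prime on A-rich stretches inside a transcript, and whether that took place here was not tested.

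HOXC9, which sets thoracic motor neuron identity, had 3 peaks. The strongest, at chr12:54002530-54003095, was 566 bp wide with 28 reads, and its summit lay 9 bp past the end of a transcript without a defined coding sequence. It had none of the 12 hexamers within 100 bp upstream of its edge and 7 A downstream of it. The search was made from the edge, at 54003095, and not from the summit, at 54002897. The peak at the full-length end had 12 reads (−log10 q-value 6.55), with AATATA upstream. The other peak, of 11 reads, lay in a HOXC9 intron, where the annotated end of HOXC-AS1 is found on the opposite strand.

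**Figure D3:**
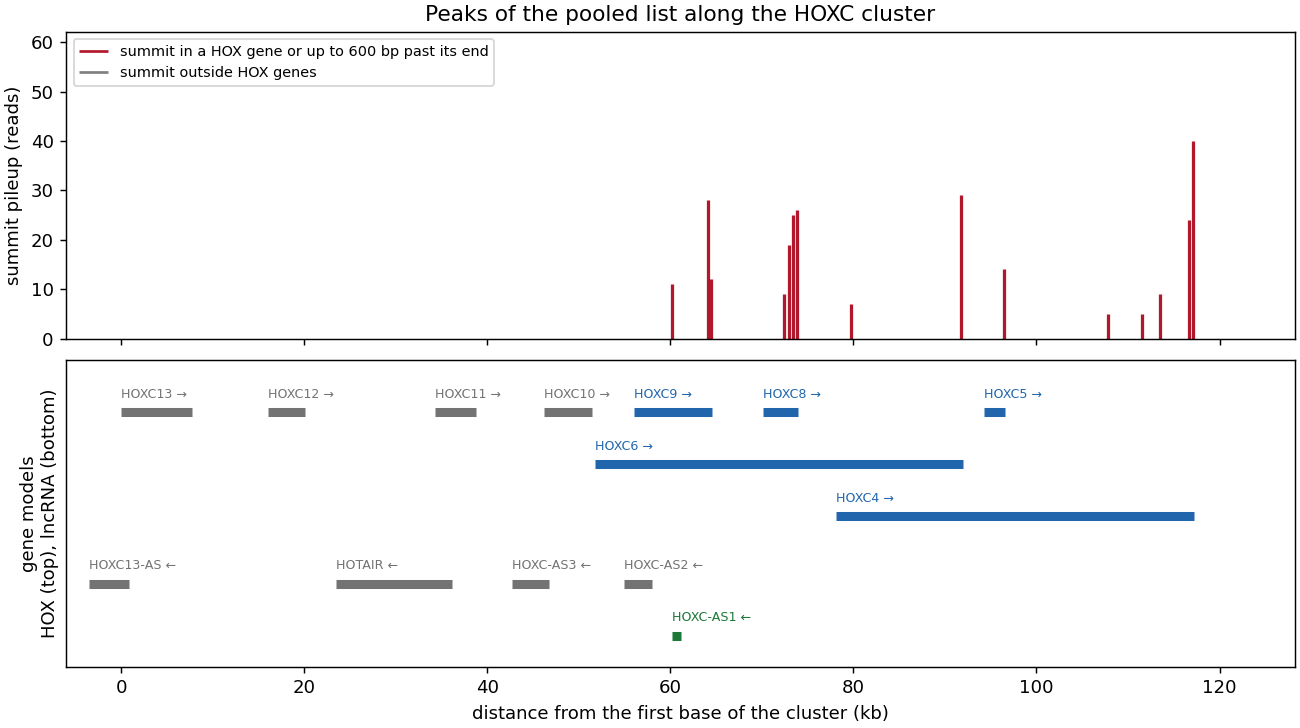
Summit pileup in reads (upper axis) and gene models (lower axis; blue or green with a peak, grey without, arrows for direction) along the HOXC cluster, by distance from its first base in kb. No peak lies before 60.2 kb, where HOXC13, HOXC12, HOXC11, HOXC10 and HOTAIR are found, and the highest, of 40 reads, marks the end of HOXC4.

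The HOXD cluster occupies bases 176092721 to 176190907 of chromosome 2, in plus orientation, and held 23 peaks, or 23.4 per 100 kb, and 17 of them were in HOX genes, with a median pileup of 16 reads (7 to 49). Peaks occurred from its upstream end, at HOXD13, to its downstream end, at HOXD1, and HOXD12 was the only gene of the cluster without a peak. Pileups were lowest at its outer genes. HOXD13 and HOXD11, which shape digits and forearm, had 7 reads each, and HOXD1, which acts in sensory neurons in mouse, had 8. These 3 genes had a single peak each, with −log10 q-values of 7.37, 7.37 and 8.87.

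HOXD10, a gene of the lumbar spinal cord and limb, had 15 reads at its annotated end (−log10 q-value 11.5). The peak of HOXD11 also lay in the long model of HOXD10. Its edge was 114 bp before the annotated end of HOXD11, with AATAAA 24 bp upstream of it.

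The highest peaks in HOX genes of this cluster were those of HOXD9, HOXD8 and HOXD3. HOXD9 had a narrow terminal peak of 131 bp at chr2:176124807-176124937 with 41 reads and a −log10 q-value of 37.1, and a further peak of 12 reads lay in its last exon. At HOXD8, the terminal peak at chr2:176131875-176132377 was 503 bp wide with 45 reads. Its summit lay 43 bp before the end of a short HOXD8 transcript and 738 bp before the last annotated end, and an annotated end of the antisense gene HOXD-AS2 lay 94 bp from its lower edge. A second HOXD8 peak, of 21 reads, overlapped coding sequence. The local background around HOXD8, of 3.52 reads at its terminal peak, was the highest of the terminal HOX peaks, and the −log10 q-value of that peak, 30.1, was below those of HOXC4, HOXC6, HOXD3 and HOXD9.

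HOXD4, which acts in the hindbrain and neck, had 3 terminal peaks of 18, 15 and 16 reads. The first ended 3 bp past the annotated end and had ATTAAA 22 bp upstream. The others ended 261 and 609 bp past it, with 6 and 8 A in the 10 bases downstream against 1 A for the first. Their pileups did not differ beyond counting error.

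HOXD3, which patterns the hindbrain and neck vertebrae, had 9 peaks in its model, 3 of which were those of HOXD4, since the longest HOXD3 transcripts start far upstream of HOXD4. The terminal peak at chr2:176172979-176173477 had 49 reads, the most of any HOX peak, and a −log10 q-value of 38.7. It was 499 bp wide, with its summit 25 bp before an annotated end and its edge 375 bp past the last annotated end. The edge had AATAAA 28 bp upstream and 9 A in the 10 bases downstream. A transcript end of HAGLR on the opposite strand lay 23 bp from the other edge, and since the list has no strand, reads from both genes cannot be told apart there.

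The other 5 HOXD3 peaks were intronic. The highest, at chr2:176155908-176156077, had 28 reads and a −log10 q-value of 24.1. It had AATAAA 22 bp upstream and no A in the 10 bases downstream, and it ended 2851 bp past the annotated end of HOXD4, on the same strand. This is the sequence before its edge, shown because the site combines a canonical signal with a downstream sequence free of A but has no annotated end (chr2:176156048-176156077, plus strand).
HOXD3 intron: tttaaaatAATAAAaggtgtagcaaaatct

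A peak of 25 reads at chr2:176150496-176150618 began shortly after the hairpin of MIR10B, which is annotated from 176150303 to 176150412 between HOXD8 and HOXD4. A peak of 22 reads at chr2:176140259-176140390 ended 727 bp past a short HOXD3 transcript and had a run of AATAAA copies starting 17 to 37 bp upstream. The remaining intronic peaks had 10 and 15 reads, and the latter was followed by 10 A in 10 bases.

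**Figure D4:**
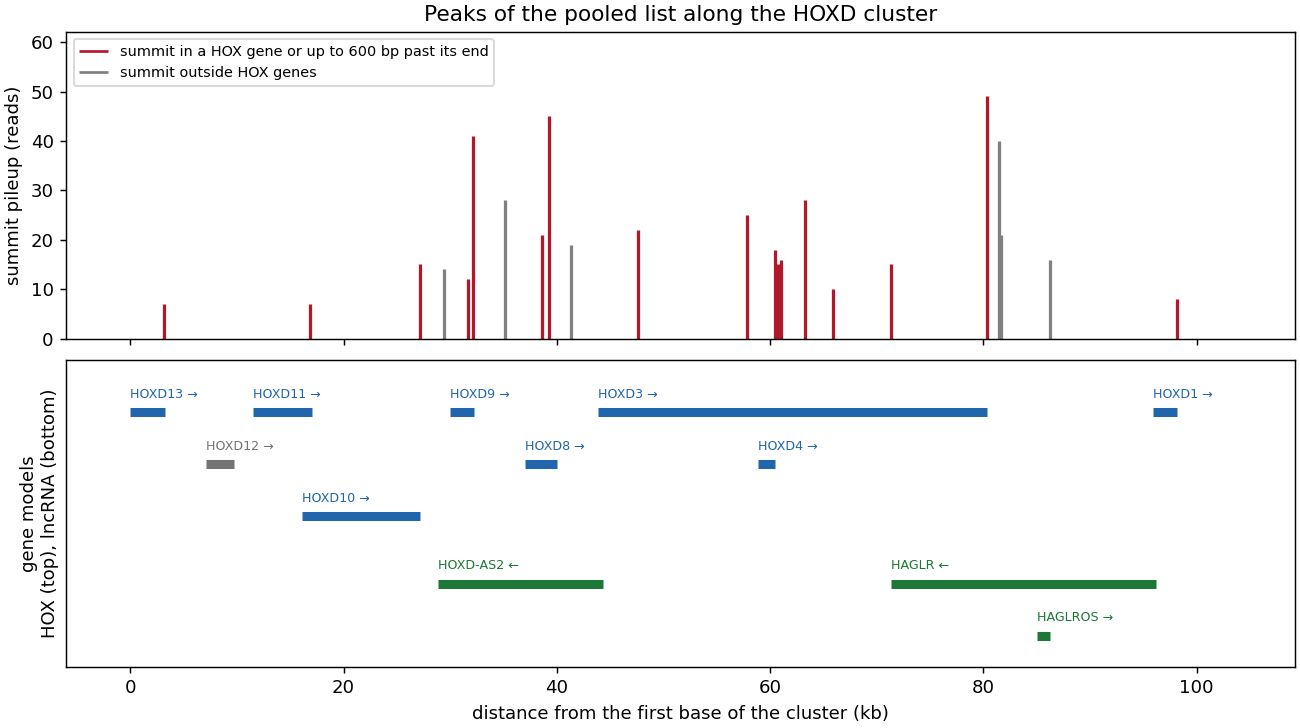
Summit pileup in reads (upper axis; red for peaks in HOX genes, grey for others) and gene models (lower axis; blue or green with a peak, grey without, arrows for direction) along the HOXD cluster, by distance from its first base in kb. The terminal peaks of HOXD9, HOXD8 and HOXD3 reach 41, 45 and 49 reads, and the peaks at the outer genes HOXD13, HOXD11 and HOXD1 stay at 7 or 8.

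By paralogue number, the genes with a peak were spread over low, middle and high numbers, each from HOXC or HOXD. The position of the cells along the body axis was not measured. Groups 4, 8 and 9 had a peak in both clusters. In group 4, HOXC4 had 40 reads and HOXD4 18, whose intervals narrowly did not overlap (28.6 against 28.4 at the nearest bounds). Since pileups count distinct positions, this gap does not show a difference in transcript number. In group 8, HOXC8 had 26 reads and HOXD8 45, and in group 9, HOXC9 had 28 and HOXD9 41, with overlapping intervals in both groups. HOXD3, HOXC5, HOXC6, HOXD10, HOXD11 and HOXD13 were the only genes of their groups with a peak. Groups 2 and 7, which exist only in HOXA and HOXB, had none, and neither had group 12, which consists of HOXC12 and HOXD12. The 7 genes with the highest pileups had paralogue numbers from 3 to 9, and genes numbered 10 to 13 had at most 15 reads.

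Of the 32 HOX peaks, 17 were terminal, 5 exonic and 10 intronic. The terminal share of 53.1% (Wilson 95% interval 36.4 to 69.1%) compares with 19.3% of the peaks in all protein-coding genes, which are longer and have more introns. Terminal HOX peaks had a median of 18 reads (7 to 49) and the others a median of 12 (5 to 28).

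At least 1 of the 12 hexamers lay within 100 bp upstream of 16 of the 17 terminal HOX peaks (94.1%, 73.0 to 99.0%), against 78.2% of all terminal peaks. AATAAA or ATTAAA started 15 to 35 bp upstream, the usual distance to a cleavage site, at 10 of the 17 (58.8%, 36.0 to 78.4%), against 45.1%. In those 10 the median distance of the nearest such hexamer was 24 bp (19 to 35). At least 7 A in the 10 bases downstream were found at 4 of the 17 (23.5%), against 20.9%. With 17 peaks, these intervals all include the value for other genes.

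Among the 15 HOX peaks that were not terminal, 3 were followed by at least 7 A (20%, 7.05 to 45.2%), against 63.2% of such peaks in all genes, a value above the interval. AATAAA or ATTAAA at the usual distance was present at 2 (13.3%), against 12.3%, and on the opposite strand at 4 (26.7%, 10.9 to 52.0%), against 5.16%. At the terminal HOX peaks it was present on the opposite strand at 0 of 17, against 6.47%. The all-gene set of peaks that were not terminal also held peaks that were terminal in another, overlapping gene. Peaks terminal in any HOX gene were left out of the 15, so the sets differ in this. The sets were not matched for gene length, or for exons against introns, either. The intervals also take peaks of the same gene as independent. The 4 peaks with the signal on the opposite strand were the one at HOXC-AS1, both of the weak HOXC4 intron peaks that begin at 54046617 and 54052370 on chromosome 12, and the HOXD8 peak in coding sequence, which lies inside the antisense gene HOXD-AS2.

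The clusters and 10 kb on each side hold 30 lncRNA genes, 21 of them antisense to the HOX genes, and 7 had a peak, of which 4 were antisense. The share over all lncRNA genes was not counted, so whether these counts are high or low cannot be told. HOXC-AS1, antisense to HOXC9, had the peak of 11 reads named above, whose lower edge lay 2 bp past its annotated end. HOTAIR, a lncRNA known for binding Polycomb proteins, as well as HOXC13-AS, HOXC-AS2 and HOXC-AS3, had no peak. On the same strand as the HOX genes, ENSG00000273046 had 3 peaks, all of them shared with HOXC6, HOXC5 or HOXC4. FLJ12825 had 2, of 10 and 7 reads, outside the cluster, and the former, which begins at 54121275, is at the annotated end of SMUG1, at 54121277, on the opposite strand.

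More peaks lay in antisense genes of HOXD. HOXD-AS2, which lies across HOXD9 and HOXD8, had 7 peaks, 3 of them outside HOX genes with 14, 28 and 19 reads. HAGLR, an antisense transcript between HOXD3 and HOXD1 that has been studied in the retinoic acid response of neuroblastoma cells, had 5. Of these, the peak at chr2:176174109-176174234 had 40 reads and that at chr2:176174377-176174480 had 21, both outside HOX genes by the rule used and both terminal for HAGLR. They also ended 1132 and 1378 bp past the annotated end of HOXD3, and both counted for HOXD3 when the reach was extended to 2000 bp. On the strand of HOXD3, AATAAA started 41 bp upstream of the edge of the former and 23 bp upstream of that of the latter, whereas neither AATAAA nor ATTAAA was found within 100 bp on the strand of HAGLR. Which gene these reads came from cannot be told from the list. The peak of 15 reads near the end of HAGLR, within the HOXD3 intron, was shared with the antisense gene ENSG00000272729. HAGLROS, on the HOX strand within HAGLR, had a peak of 16 reads that ended at its annotated end.

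A further set of 3 sites is shown as examples of AATAAA at the usual distance on the strand of a lncRNA gene. Others were the peak of 21 reads in HOXD8 and HOXD-AS2, and the ends of HOXC6 and HOXC5, which also lie in ENSG00000273046 on the same strand. The edge was within 2 bp of an annotated end at HOXC-AS1 and HAGLROS, but 4136 bp past the nearest one within HOXD-AS2. The bases end at the edge of the peak on the strand given and the signal is in capitals. The first lies at chr12:53999020-53999049 on the minus strand, the second at chr2:176127833-176127862 on the minus strand and the third at chr2:176178980-176179009 on the plus strand.
HOXC-AS1: tccctcAATAAAatttttatgaggatcatt
HOXD-AS2: ttattattgtcAATAAAgccttggagctac
HAGLROS: ataacAATAAAaatatacttaaaacaccaa

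HOX proteins bind DNA together with the PBX, MEIS and PKNOX homeodomain proteins. All 9 cofactor genes examined had a peak, against 77.2% of all protein-coding genes. Of the 9, 8 had a terminal peak, against 68.7%, with a median of 34.5 reads for the strongest against 23 over all genes with a terminal peak. The highest were PKNOX1 with 58 reads, PBX2 with 45 and MEIS1 with 39, and PKNOX2 had peaks but no terminal one.

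Of 14 known regulators of HOX genes, 11 had a terminal peak, against 68.7% of all protein-coding genes. Their median was 27 reads, against 23 over all genes with a terminal peak. RARB, a retinoic acid receptor, had 51, and SUZ12, a Polycomb subunit, and GDF11, a signal for tail identity, had 40 each. CDX1, CDX2 and CDX4, homeobox genes that activate HOX genes in the embryo, had no peak.

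Of 31 homeobox genes outside the clusters, 12 had a peak and 11 a terminal peak, with a median of 18 reads against 26 in the HOX genes. PHOX2A, a factor of the sympathetic lineage, had 114 reads, the most of any protein-coding gene, and MSX2 had 37. Among the 19 without a peak were EVX1, EVX2, PDX1 and MEOX1. The share of HOX genes with a peak, 33.3%, and that of these other homeobox genes, 38.7%, were both below the 77.2% of all protein-coding genes.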

How the data were processed

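Poly(A) 3′-seq (QuantSeq REV, single-end) of 10 IMR-32 libraries with shRNAs was analysed from the peak list the authors deposited. The authors trimmed the reads, mapped them to GRCh38 with STAR 2.5.1b, downsampled them to the smallest library, merged all libraries and called peaks with MACS2 2.1.1, with reads extended to 100 bp, per the study's methods and processing notes. The methods then remove peaks that had no poly(A) signal hexamer upstream but a long genomic stretch of A downstream. Whether the deposited list is from before or after that step was not determined. The deposited fold is a ratio: the authors' summit pileup over the local background, each plus 1. The deposited p-value and q-value are on a −log10 scale (all q-values at least 1.30), and the deposited score was not used. Deposited coverage tracks were not used here. Strand and values of single libraries are absent from the list, so depth per library is unknown. The lowest background, 0.215 reads, corresponds to 5.79e+06 distinct reads if MACS2's default genome size was used.

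Pileup and background were recovered from fold and p-value (largest miss 0.000168 in −log10 p-value). Since MACS2 by default keeps 1 read per position and strand, pileups count distinct positions and saturate. Summits were placed in GENCODE 44 genes, all transcripts, whereas the study used detected transcripts of an earlier release. The 12 hexamers of the study were searched within 100 bp upstream of the 3′ edge of each peak on the strand of the gene (the canonical AATAAA and the common ATTAAA, with the variants of the first bases TATAAA and CATAAA and GATAAA, those of the middle bases AGTAAA and ACTAAA and AAGAAA, and those of the later bases AATATA and AATACA and AATAGA and AATGAA), and A was counted in the 10 genomic bases downstream. Overlapping hexamers were each counted. Sequences are from the reference genome.

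No test was run: counts and medians are given beside those of all protein-coding genes, with Wilson intervals for shares and exact Poisson intervals for pileups, for counting error only. The steps were tested on simulated data. Every HOX gene is accounted for: genes with a peak are named with their strongest peak, those with 3 or more peaks or a −log10 q-value reaching 20 are described in full, every lncRNA gene of the clusters with a peak is named, and of the other lists the 3 genes with the highest pileup, except that some items are not reported here. Other genes named were chosen after their values were seen. The members and lists were chosen with earlier results of these data known. Software was Python 3.11.15, pandas 2.3.3, numpy 2.4.6, pysam 0.24.0, scipy 1.17.1 and matplotlib 3.10.9.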

Additional observations from a re-analysis of the deposited data

How the results depend on the processing

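The 10 alternatives changed the q-value minimum, the reach past the 3′ end, the position of the peak, the transcripts, the terminal window, the merging of nearby peaks, the treatment of A-rich sites and the assignment of shared peaks. HOXA and HOXB had 0 peaks under each of them. Only a −log10 q-value of at least 20 moved a count by more than 1.5 times or the terminal share out of its interval. It left 7 HOX genes with a peak and 7 with a terminal peak, without HOXC5, HOXD1, HOXD4, HOXD10, HOXD11 and HOXD13. It also left 11 HOX peaks, 6 in HOXC and 5 in HOXD, with a terminal share of 72.7%, and 3 lncRNA genes with a peak. With 1 transcript per gene HOXD8, with A-rich sites left out HOXD3, and with a terminal window of 100 bp on each side HOXD11 had no terminal peak, which left 12 genes in each case.

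No paired analysis was possible because all libraries were merged before peak calling, and no replicate was left out for the same reason. Weak genes such as HOXD11 and HOXD13, at 7 reads, lie near the depth limit of the list. Without strand, peaks shared by a HOX gene and an antisense lncRNA, as at HOXD3, HOXD8 and HOXD9, cannot be divided between them. Peaks inside overlapping HOX models cannot be given to 1 gene.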
